A study of Mus musculus with 9 samples.

Results

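Interferon-stimulated genes (ISGs) are the genes that a cell turns on after interferon binds its receptors, and 42 of them were picked by symbol from the 24421 rows of the deposited gene count table. All 42 were found in the table, and all 42 passed the filter on low counts in both comparisons made below. The study describes RNA sequencing of cells taken ex vivo from the brains of C57BL/6 mice. SB28, a GFP-carrying mouse glioma cell line, had been implanted in the brain, and the mice had received vehicle (control, 3 libraries) or BAL101553 (3 libraries), an oral prodrug of a compound that acts on microtubules and activates the spindle assembly checkpoint. The other 3 libraries are labelled astrocytes, with the treatment given as BAL101553, and the study's text does not describe them. According to the study's methods the SB28 cells were sorted as CD45-CD11b-GFP+ cells, while the labels of the control and BAL101553 libraries call the material whole tissue. In the study's methods treated tumors were taken later than control tumors, to match tumor volume, so treatment and time of growth cannot be told apart. The labels do not say whether libraries of a group came from separate mice, and p-values therefore measure the spread between these libraries, which may be technical. The methods also state fewer ex vivo libraries in a group than the table holds, and they name another deposit for the sequence data. The sorting and times of harvest given there may therefore not describe these libraries.

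As background, type I interferons (IFN-alpha and IFN-beta) signal through the receptor chains IFNAR1 and IFNAR2 and the kinases JAK1 and TYK2. A complex that holds STAT2 and IRF9 then binds the interferon-stimulated response element (ISRE). IFN-gamma signals through IFNGR1 and IFNGR2 with JAK1 and JAK2, and its targets carry the gamma-activated site (GAS). The Ifit and Oas genes are classically read as type I targets, and the guanylate-binding proteins (Gbp) and immunity-related GTPases (Irg) as IFN-gamma targets, although many genes of either set answer to both cytokines. Here the type I class holds the 8 Ifit and Oas family members and the IFN-gamma class the 8 Gbp and Irg family members.

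The control libraries held 24540452 to 28761388 counted reads, the BAL101553 libraries 26667789 to 34013875 and the libraries labelled astrocytes 22919523 to 29230743. The members together took between 0.143% and 0.265% of the reads of an SB28 library. At least 100 reads fell on 33 of the 42 members in each of the 6 SB28 libraries, and the lowest count of a member was 3 reads, on Oas2 in control 1. Levels are given as CPM, the reads of a gene scaled to the library total, after trimmed-mean (TMM) scaling over the 9 libraries. Summed over 8 astrocyte markers, the libraries labelled astrocytes reached 11999 to 14749 CPM against 681 to 972 CPM in the SB28 libraries, and they also carried 10282 to 12723 CPM of 6 oligodendrocyte markers against 15.3 to 20.6 CPM. Ptprc, which encodes CD45, lay between 0.0684 and 0.337 CPM and Itgam, which encodes CD11b, between 0.0449 and 0.445 CPM in the SB28 libraries, from 1 to 13 reads.

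The stretches just upstream of members of both classes are shown first, since the letters of the response elements can be read in them. They are the 130 bases directly before the RefSeq transcription start (GRCm38.p6, the same assembly as mm10), 5′ to 3′ on the gene's strand. Capitals mark every match, on either strand, to the ISRE core GAAANNGAA or to the GAS letters TTCNNNGAA.
Isg15, chr4:156200819-156200948, minus strand: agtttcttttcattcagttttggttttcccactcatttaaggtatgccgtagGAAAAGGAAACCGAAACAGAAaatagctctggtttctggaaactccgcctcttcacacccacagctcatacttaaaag
Ifit1, chr19:34640759-34640888, plus strand: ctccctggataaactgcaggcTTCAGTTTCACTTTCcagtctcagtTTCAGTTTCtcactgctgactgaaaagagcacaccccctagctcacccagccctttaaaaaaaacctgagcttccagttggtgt
Ifit3, chr19:34583399-34583528, plus strand: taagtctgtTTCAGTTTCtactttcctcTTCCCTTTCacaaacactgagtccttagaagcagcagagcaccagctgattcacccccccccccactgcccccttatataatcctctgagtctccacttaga
Oas1a, chr5:120907526-120907655, minus strand: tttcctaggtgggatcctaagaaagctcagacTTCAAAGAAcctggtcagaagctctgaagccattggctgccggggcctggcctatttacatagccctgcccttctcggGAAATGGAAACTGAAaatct
Oas3, chr5:120777660-120777789, minus strand: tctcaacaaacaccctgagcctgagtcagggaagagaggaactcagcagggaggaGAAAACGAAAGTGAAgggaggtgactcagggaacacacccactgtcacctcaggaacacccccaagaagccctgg
Irf1, chr11:53769884-53770013, plus strand: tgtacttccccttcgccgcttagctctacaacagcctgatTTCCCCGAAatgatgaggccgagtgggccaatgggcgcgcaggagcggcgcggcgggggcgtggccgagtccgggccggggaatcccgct
Igtp, chr11:58199426-58199555, plus strand: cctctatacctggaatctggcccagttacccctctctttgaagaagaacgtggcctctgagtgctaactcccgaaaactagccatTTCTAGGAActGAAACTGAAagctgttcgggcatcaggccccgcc
Irgm2, chr11:58214847-58214976, plus strand: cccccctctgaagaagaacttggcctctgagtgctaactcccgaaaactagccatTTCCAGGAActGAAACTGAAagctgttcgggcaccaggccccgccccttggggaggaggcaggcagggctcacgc
Gbp7, chr3:142530206-142530335, plus strand: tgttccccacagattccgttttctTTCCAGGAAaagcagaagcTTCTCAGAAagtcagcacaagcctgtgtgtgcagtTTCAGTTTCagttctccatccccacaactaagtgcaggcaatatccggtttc
Isg15, Ifit1, Ifit3 and Oas3 held ISRE core letters only in these stretches, with matches that ran into each other in Isg15, Ifit1, Oas1a and Oas3. Irf1 held GAS letters only. Oas1a, Igtp, Irgm2 and Gbp7 held both, and Oas1a is a member of the type I class. The Igtp and Irgm2 stretches were 94.0% identical over 100 bases when slid by 30 bases, and the GAS and ISRE letters stood in the same order in both.

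In the 250 bases before the start, ISRE core letters were found in 18 of the 34 members that have a promoter in the RefSeq table (52.9%), against 7.13% of all 32851 promoters and 8.18% of the 27025 genes they belong to. All 7 IFN-gamma class members with a promoter held them, and 4 of 7 type I class members did. GAS letters were found in 9 of 34 members (26.5%), against 7.02% of promoters and 8.13% of genes, among them 4 of 7 IFN-gamma class and 2 of 7 type I class members. Both sets of letters occurred in 6 members (Bst2, Gbp5, Gbp7, Igtp, Irgm2 and Oas1a), with matches that overlapped in 1 of them, Bst2. Neither occurred in 13 members, among them Irf7, Irf9, Oasl1 and Oasl2. A match is a description of the letters in this window and not a site of binding.

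The members varied widely among libraries of the same group. The SD of log2 CPM over the 3 control libraries had a median of 0.633 over the members, against 0.152 over the 12633 genes tested, and over the 3 BAL101553 libraries it was 0.654 against 0.175. The SD lay above the median of all genes in 41 of 42 members in the control group (Trim25, a ubiquitin ligase of the RIG-I pathway, was the exception) and in 41 of 42 in the BAL101553 group (Ifitm3, a membrane protein that restricts virus entry, was the exception). The members' levels themselves were ordinary, with a median over the 6 SB28 libraries of 33.1 CPM against 29.3 CPM over all genes tested. In the libraries labelled astrocytes the median SD was 0.160 against 0.116, and 24 of 42 members lay above the median of all genes. Without control 1 the members' median SD in the control group fell to 0.181, against 0.115 over all genes. Without BAL101553 1 it was 0.369 in the BAL101553 group, without BAL101553 2 it was 0.505 and without BAL101553 3 it was 0.916.

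**Figure D1:**
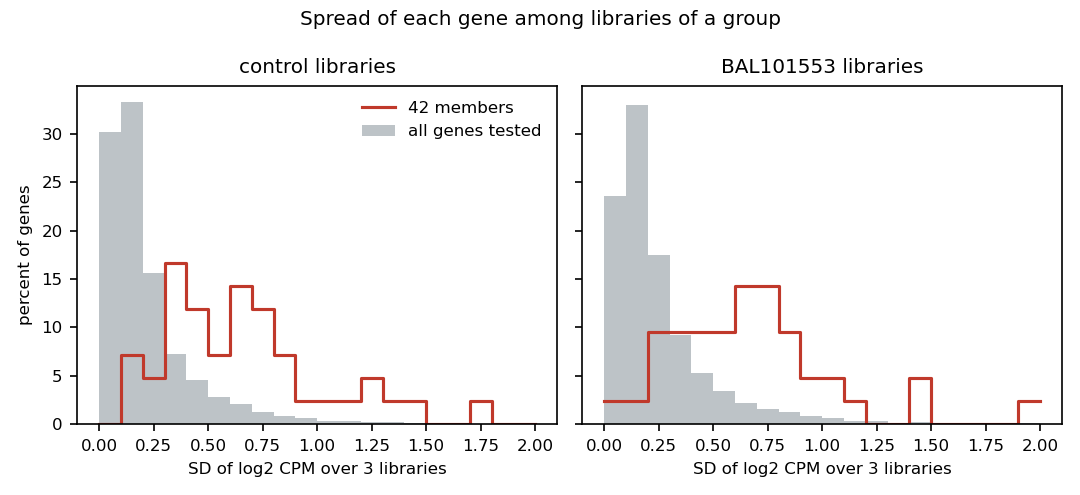
Histograms of the SD of log2 CPM over the 3 libraries of a group (x axis, bins of 0.1, the last bin also taking all higher values) as percent of genes (y axis), for all genes tested (grey) and the 42 members (red line). The members' median of 0.633 in control and 0.654 in BAL101553 libraries lies to the right of the bulk of genes, whose medians are 0.152 and 0.175.

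This spread had an order. In the control group 40 of 42 members were lowest in control 1, against 37.8% of all genes tested, and 33 were highest in control 3 and 8 in control 2. In the BAL101553 group 41 of 42 were lowest in BAL101553 1, against 30.5% of all genes, and 40 were highest in BAL101553 2. Taken across both groups, 40 members (95.2%) were lowest in the libraries numbered 1 of both groups, compared with 11.6% of all genes tested. In the libraries labelled astrocytes the lowest value was spread over the libraries, with 14, 16 and 12 members lowest in libraries 1, 2 and 3. The genes are not independent of each other, so these counts describe the libraries and carry no test.

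**Figure D2:**
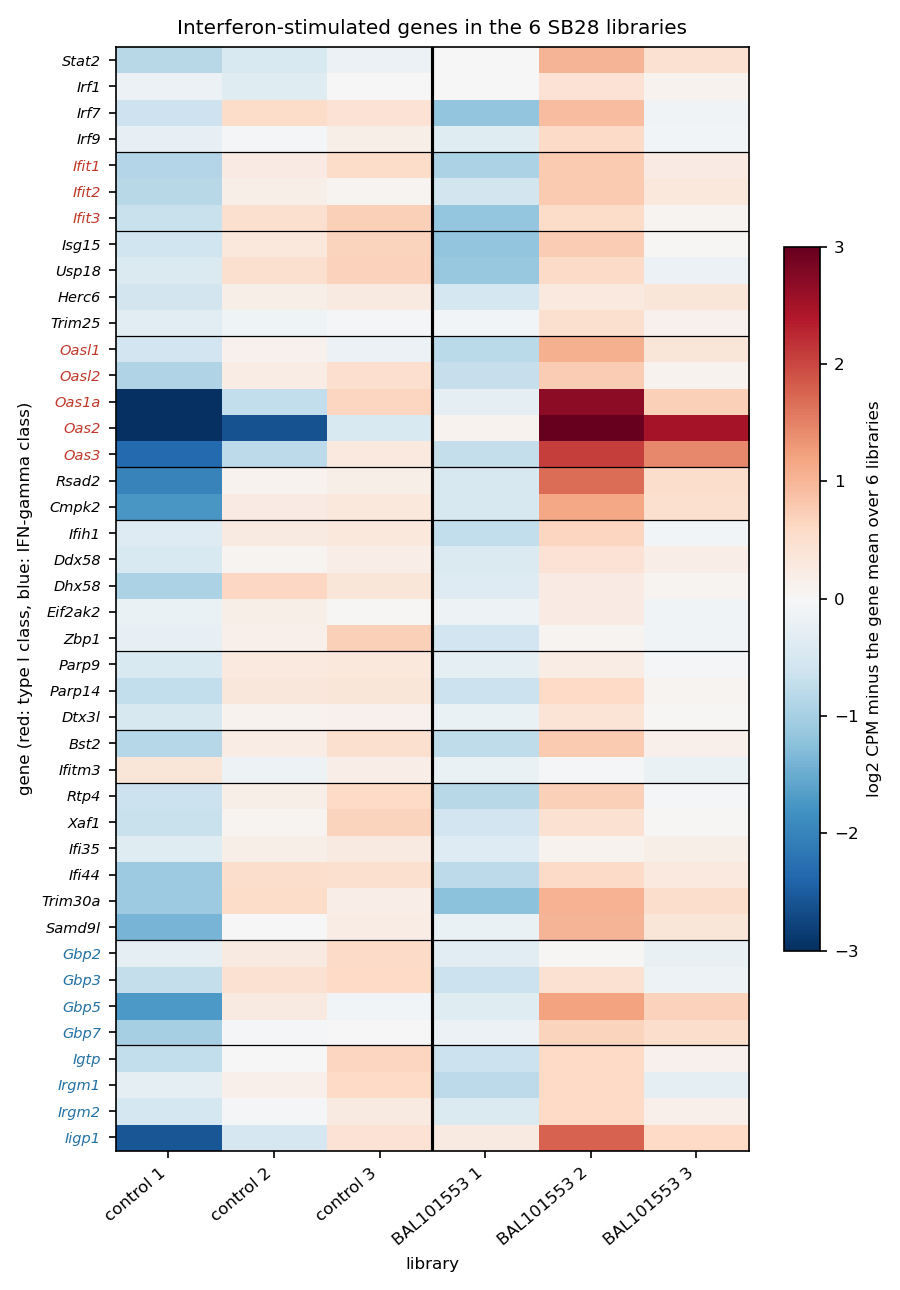
Heat map of log2 CPM minus the mean of the gene over the 6 SB28 libraries (colour, limited to the range from -3 to 3) for the 42 members (rows, grouped by role) in each library (columns). The columns of control 1 and BAL101553 1 are mostly blue, since 40 and 41 of 42 members were lowest there, and that of BAL101553 2 is mostly red.

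ISG15, a ubiquitin-like protein that is attached to other proteins, showed the pattern in its own gene and in that of its protease. Isg15 measured 33.4, 62.2 and 80.4 CPM in control 1, 2 and 3, and 22.2, 85.0 and 51.3 CPM in BAL101553 1, 2 and 3, a 3.84-fold range within the BAL101553 group. The control values lay inside the range of the BAL101553 values. Usp18, the protease that removes ISG15 and also damps IFNAR signaling, measured 24.5, 46.6 and 53.4 CPM in control and 15.1, 49.6 and 29.6 CPM in BAL101553 libraries. Herc6, a ligase that attaches ISG15, was highest in BAL101553 3, with 13.4, 23.8 and 24.8 CPM in BAL101553 libraries, and Trim25 varied by 1.22-fold within the control group. Bst2, which tethers budding virus to the cell surface, ran from 70.4 CPM in control 1 to 178 CPM in control 3, and from 76.1 CPM in BAL101553 1 to 222 CPM in BAL101553 2. By contrast Ifitm3, the member with the highest level per kilobase of exon, was highest in control 1, with 731, 508 and 658 CPM in control and 498, 557 and 498 CPM in BAL101553 libraries.

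The same libraries stood low for interferon genes outside the 42. Of 47 other ISGs that passed the filter, 38 (80.9%) were lowest in the libraries numbered 1 of both groups, and their median SD was 0.628 in control and 0.486 in BAL101553 libraries. Cxcl10, a chemokine that draws T cells, measured 9.15, 19.0 and 34.9 CPM in control and 12.8, 54.7 and 31.6 CPM in BAL101553 libraries. The upstream machinery varied less. Over the 7 genes of the receptors and their kinases the median SD was 0.0497 in control and 0.138 in BAL101553 libraries, and over 17 genes of cytosolic nucleic acid sensing it was 0.167 and 0.183. Part of the sensing genes still took the order of the members. Of the 17, 8 (47.1%) were lowest in the libraries numbered 1 of both groups, against 11.6% of all genes tested. Among the 7 receptor and kinase genes 0 were. The SD of 11 of the 17 sensing genes lay above the median of all genes in either group.

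Library totals and the summed markers of other cell types did not take that order across both groups. Total counts were lowest in control 1 among control libraries but lay in the middle in BAL101553 1. Summed over 15 markers, microglia and macrophages gave 279, 339 and 203 CPM in control 1, 2 and 3 and 432, 371 and 424 CPM in BAL101553 1, 2 and 3, but most of this sum was Tmem119 (155 to 382 CPM), and Ptprc, Itgam and Csf1r, the receptor of the macrophage growth factor, each lay at or below 0.671 CPM. Markers of T and NK cells, the usual source of IFN-gamma, summed to at most 0.210 CPM over 10 genes in an SB28 library, and 7 of the 10 were at 0 in all control and 8 in all BAL101553 libraries. Neuron markers gave 56.5, 49.9 and 67.2 CPM in control and 31.9, 57.7 and 47.9 CPM in BAL101553 libraries, with Rbfox3 at 0 in all 6. Most of this sum was Tubb3, with 43.7, 44.2 and 56.6 CPM in control and 23.0, 46.4 and 33.7 CPM in BAL101553 libraries. Tubb3 by itself was lowest in the libraries numbered 1 of both groups, as were 11.6% of all genes tested. Endothelial markers summed to 516 to 861 CPM, most of it Cdh5 (490 to 823 CPM), while Cldn5, Pecam1 and Tie1 each lay at or below 1.48 CPM. Astrocyte markers summed to 681 to 972 CPM, most of it Gja1 (650 to 928 CPM), while Slc1a2, Aqp4 and Gfap each lay at or below 1.61 CPM. These sums therefore follow 1 gene each and are no measure of the named cell types in the SB28 libraries. The part of other cells in the members' spread was not tested. In these bulk libraries fewer cells with an interferon response and less RNA per cell cannot be told apart.

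The interferons themselves were hardly seen. Of 21 interferon genes in the table, 16 had 0 reads in all 6 SB28 libraries, and none passed the filter. Ifnb1, which encodes IFN-beta, had 3 reads in control 3, 8 reads in BAL101553 3 and 0 in the other SB28 libraries, and it was the only interferon gene with over 3 reads in an SB28 library. Ifng had 0 reads in the 6 SB28 libraries and 4, 2 and 6 reads in the libraries labelled astrocytes. A count of 0 allows up to 3 reads in a library, for counting error only.

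Against this spread, BAL101553 and control libraries were compared to ask whether the treatment was accompanied by a change in the members. With edgeR's quasi-likelihood test and Benjamini-Hochberg adjustment over 12633 genes, 2 of 42 members rose in BAL101553 libraries (Stat2 and Oas2) and 0 fell. Of all genes tested, 8.64% rose and 6.09% fell. The count of 2 is too small to tell the members' share of rises from that of all genes. At an unadjusted p under 0.05, 5 members were higher (Stat2, Irf1, Trim25, Oas2 and Oas3) and 0 lower, against 18.4% and 15.7% of all genes. Every BAL101553 library was above every control library in 2 members, again Stat2 and Oas2, and below in 0, against 20.1% and 19.6% of all genes. The log2 fold change was positive in 26 members and negative in 16, with a median of 0.12 against 0.016 over all genes tested. DESeq2 and limma-trend called the same genes, Stat2 and Oas2.

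**Figure D3:**
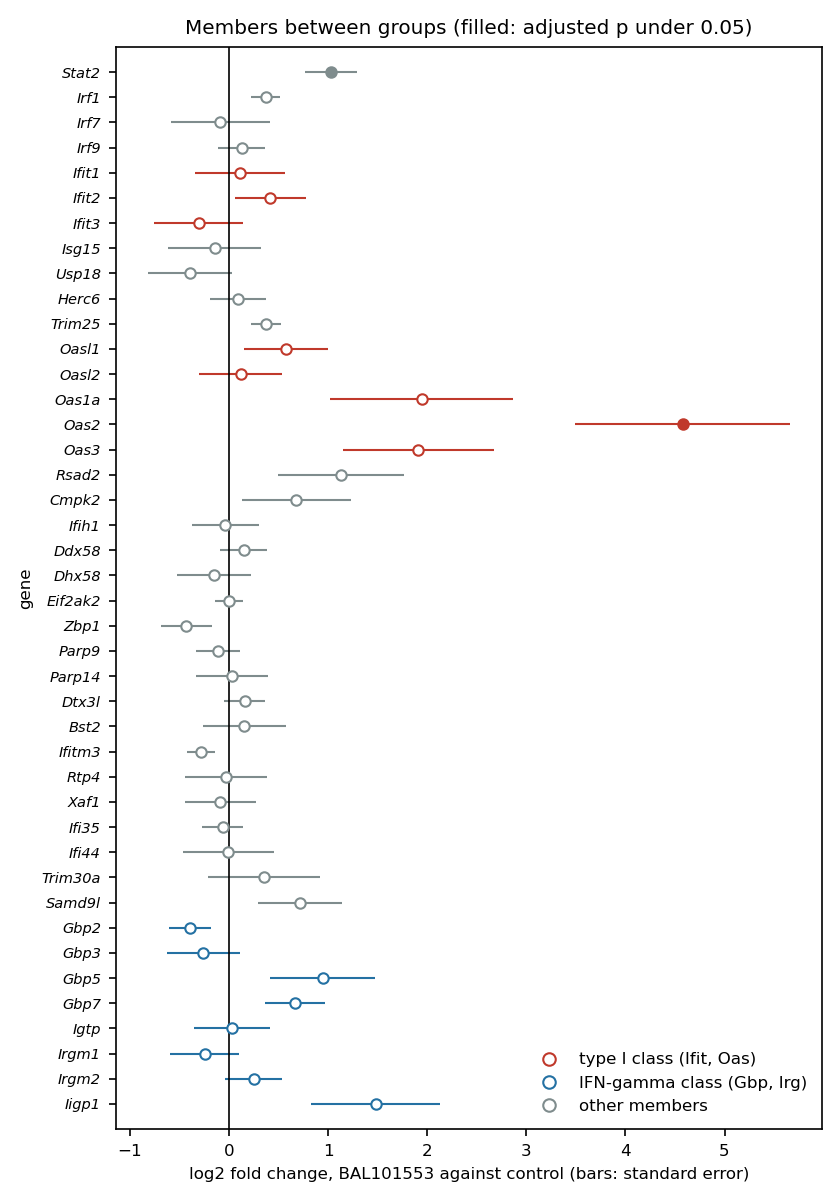
Log2 fold change between BAL101553 and control libraries (x axis, bars are the standard error of edgeR's quasi-likelihood fit, 3 libraries in each group) for the 42 members (y axis, grouped by role), filled where the adjusted p is under 0.05. Stat2 and Oas2 are filled, and the bars of most other members reach 0 or lie near it.

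Among the transcription factors, Stat2, which brings the activating domain to the ISRE-binding complex, rose. Stat2 (chr10:128270559-128292849, plus strand, GENCODE vM21 on GRCm38) measured 26.3, 33.8 and 41.1 CPM in control and 47.1, 94.7 and 63.9 CPM in BAL101553 libraries. The groups did not overlap, although BAL101553 1 was close to control 3. The log2 fold change was 1.03 (SE 0.263, adjusted p = 0.039 by edgeR's quasi-likelihood test). Without control 1, control 2, control 3, BAL101553 2 or BAL101553 3 the adjusted p of Stat2 lay between 0.0549 and 0.114 in that test, and the log2 fold change between 0.72 and 1.19.

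The other transcription factors did not pass the threshold. Irf1, an early interferon target that in turn drives many ISGs, measured 64.7, 56.5 and 73.5 CPM in control and 73.3, 98.4 and 79.2 CPM in BAL101553 libraries (log2 fold change 0.37, SE 0.144, adjusted p = 0.115 by edgeR). Only BAL101553 1 fell within the control range. Irf9, the DNA-binding partner of STAT2, measured 34.3, 39.9 and 46.3 CPM in control and 31.9, 60.6 and 38.7 CPM in BAL101553 libraries, with a log2 fold change of 0.13 (SE 0.234). Irf7, which amplifies type I interferon production, measured 14.0, 31.6 and 29.3 CPM in control and 9.51, 40.8 and 20.0 CPM in BAL101553 libraries, with a log2 fold change of -0.086 (SE 0.50). Both groups of Irf7 and Irf9 overlapped, and BAL101553 1 was the lowest library of all 6.

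The Oas family encodes enzymes that make 2-5A, the activator of RNase L, after they bind double-stranded RNA, together with the OAS-like proteins Oasl1 and Oasl2. All 5 members had positive log2 fold changes, with a median of 1.91, and 1 of 5 rose. Oas2 (chr5:120730333-120749853, minus strand) had 3, 7 and 28 reads in control and 51, 681 and 312 reads in BAL101553 libraries, which made 0.135, 0.265 and 1.18 CPM against 1.74, 26.9 and 9.19 CPM. The groups did not overlap, but BAL101553 1 and control 3 lay within a narrow gap, and the range within the BAL101553 group was 15.4-fold. The log2 fold change was 4.58 (SE 1.08, adjusted p = 0.032 by edgeR). Without control 1, control 2, control 3 or BAL101553 3 the adjusted p of Oas2 lay between 0.0654 and 0.0965 in that test.

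Oas3 and Oas1a lie in the same cluster as Oas2 on chromosome 5, on the same strand (chr5:120753098-120777661 and chr5:120896256-120907521), and shared its order of libraries within each group. Oas3 measured 0.673, 1.97 and 4.13 CPM in control and 2.05, 14.2 and 9.16 CPM in BAL101553 libraries (log2 fold change 1.91, SE 0.759, adjusted p = 0.121 by edgeR). Oas1a measured 0.359, 1.71 and 4.50 CPM in control and 2.33, 18.3 and 4.68 CPM in BAL101553 libraries (log2 fold change 1.94, SE 0.923, adjusted p = 0.179 by edgeR). In both genes BAL101553 1 lay inside the control range, and Oas1a reads could be shared with its near copy Oas1g, so its level is uncertain. Oasl1 measured 8.70, 14.3 and 11.5 CPM in control and 7.35, 27.4 and 16.6 CPM in BAL101553 libraries (log2 fold change 0.58, SE 0.422). Oasl2 measured 29.97, 65.6 and 80.3 CPM against 34.9, 94.9 and 60.3 CPM (log2 fold change 0.12, SE 0.418). For Oasl1 and Oasl2 the groups overlapped widely.

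The Ifit genes, whose proteins bind foreign RNA at its 5′ end and block its translation, showed no change past the threshold. Ifit1 measured 31.7, 68.2 and 84.1 CPM in control and 30.03, 99.3 and 68.9 CPM in BAL101553 libraries, with a log2 fold change of 0.12 (SE 0.455). Ifit2 measured 17.4, 35.2 and 32.7 CPM against 21.1, 53.7 and 38.8 CPM (log2 fold change 0.42, SE 0.360). Ifit3, whose reads could be shared with its near copy Ifit3b, measured 30.1, 66.2 and 78.5 CPM against 21.2, 69.4 and 50.04 CPM (log2 fold change -0.31, SE 0.452). In each of them the libraries numbered 1 of both groups were the lowest, and the groups overlapped. The lowest adjusted p of the 3 genes was 0.446 by edgeR's quasi-likelihood test.

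Of the 4 Gbp genes, whose GTPase products attack vacuoles and microbes inside cells, 0 passed the threshold. Gbp2 measured 38.1, 56.6 and 70.4 CPM in control and 37.2, 48.0 and 40.1 CPM in BAL101553 libraries (log2 fold change -0.39, SE 0.212). Gbp3 measured 25.0, 56.6 and 63.0 CPM against 26.2, 57.0 and 37.3 CPM (log2 fold change -0.26, SE 0.372). In both genes control 3 was the highest of the 6 libraries, and the groups overlapped. Gbp7 measured 8.21, 16.1 and 16.5 CPM against 14.6, 26.2 and 23.8 CPM (log2 fold change 0.67, SE 0.304, adjusted p = 0.163 by edgeR). Gbp5 measured 0.763, 2.99 and 2.36 CPM against 1.95, 5.80 and 4.03 CPM (log2 fold change 0.94, SE 0.534). In Gbp5 and Gbp7 BAL101553 1 alone lay within the control range.

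The Irg genes encode GTPases that mark and disrupt vacuoles holding parasites, and 0 of 4 passed the threshold. Igtp measured 13.1, 22.2 and 34.4 CPM in control and 14.0, 33.1 and 23.9 CPM in BAL101553 libraries (log2 fold change 0.031, SE 0.388). Irgm1 measured 60.7, 80.8 and 111 CPM against 42.3, 110 and 59.8 CPM (log2 fold change -0.24, SE 0.350). Irgm2 measured 11.5, 15.9 and 19.9 CPM against 12.3, 25.2 and 18.5 CPM (log2 fold change 0.25, SE 0.286). The groups overlapped in all of these, and in GENCODE vM21 the gene model of Irgm2 begins inside Igtp on the same strand, so reads on the shared stretch could be split between them. Iigp1 measured 1.44, 5.95 and 11.4 CPM against 10.3, 29.0 and 12.9 CPM, with a log2 fold change of 1.48 (SE 0.652, adjusted p = 0.153 by edgeR), and only control 3 reached into the BAL101553 range.

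Of the members outside the transcription factors and both classes, 0 passed the threshold, and the 5 with the lowest p were Trim25, Ifitm3, Rsad2, Samd9l and Zbp1. Trim25 measured 67.4, 77.4 and 82.0 CPM in control and 80.9, 118 and 93.1 CPM in BAL101553 libraries (log2 fold change 0.37, SE 0.149, adjusted p = 0.125 by edgeR). Rsad2 encodes viperin, an antiviral enzyme that makes a chain-terminating nucleotide, and it measured 4.04, 17.5 and 18.4 CPM against 11.7, 51.8 and 23.4 CPM (log2 fold change 1.13, SE 0.636). Both genes had BAL101553 1 within the control range. Samd9l, an inhibitor of translation and growth, measured 15.6, 41.2 and 48.3 CPM against 35.9, 83.5 and 52.7 CPM (log2 fold change 0.72, SE 0.427). Zbp1, a sensor of Z-form nucleic acid that can start necroptosis, measured 23.8, 31.3 and 46.0 CPM against 18.8, 29.6 and 26.2 CPM (log2 fold change -0.43, SE 0.257). Zbp1 had the most negative log2 fold change of the 42, and Ifitm3, with -0.28 (SE 0.144), was lower in BAL101553 1 and 3 than in every control library. The RNA sensors Ifih1, Ddx58 and Dhx58 and the kinase gene Eif2ak2 had log2 fold changes from -0.15 to 0.15, and Parp9, Parp14 and Dtx3l, which act together in DNA damage and interferon signaling, from -0.11 to 0.16. The log2 fold changes of Isg15, Usp18, Herc6, Cmpk2, Bst2, Rtp4, Xaf1, Ifi35, Ifi44 and Trim30a lay between -0.39 (Usp18) and 0.68 (Cmpk2), each with groups that overlapped. Trim30a reads could be shared with its near copy Trim30d.

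Placed side by side, the classes moved together from library to library. The mean log2 CPM of the type I class was 2.27, 3.43 and 4.02 in control 1, 2 and 3 and 3.12, 5.33 and 4.46 in BAL101553 1, 2 and 3. That of the IFN-gamma class was 3.31, 4.33 and 4.65 and 3.88, 5.01 and 4.45. Both were lowest in the libraries numbered 1 and highest in control 3 and BAL101553 2, and the type I class spanned the wider range in either group. The type I level minus the IFN-gamma level was -1.04, -0.90 and -0.63 in control and -0.76, 0.32 and 0.0139 in BAL101553 libraries, so BAL101553 1 lay within the control range. The mean difference went from -0.86 ± 0.21 to -0.14 ± 0.56 (SD, n = 3), that is by 0.72 on the log2 scale.

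That difference between the classes rested on Oas1a, Oas2 and Oas3, the genes of the cluster on chromosome 5. Without them it was -0.23, and with a type I class of the 33 members that remain outside the Gbp and Irg families and Irf1 it was -0.00529. The median over the class of the difference in mean log2 CPM was 0.39 for the type I class and 0.13 for the IFN-gamma class. Without control 1 the IFN-gamma median was -0.15, without BAL101553 2 it was -0.13, and the type I median without BAL101553 2 was 0.0227.

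**Figure D4:**
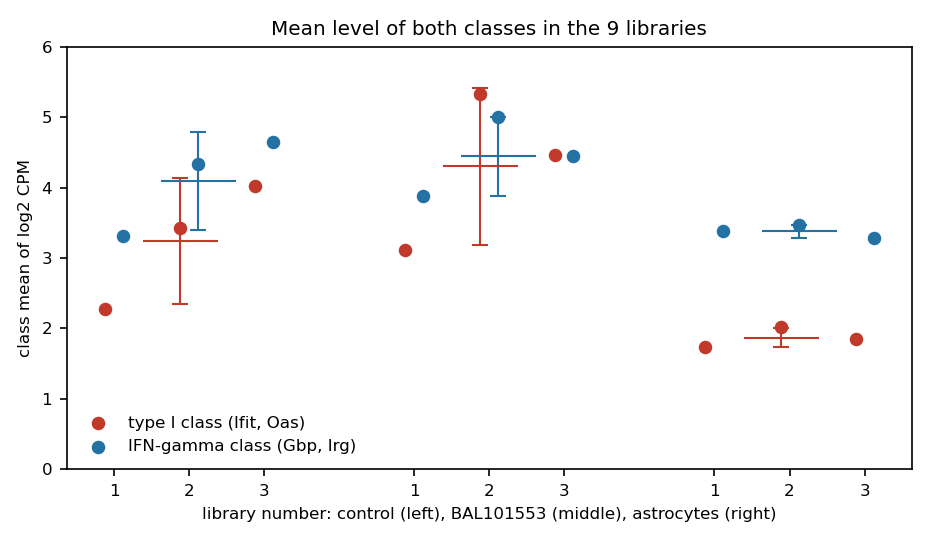
Mean log2 CPM of the 8 type I class (red) and 8 IFN-gamma class (blue) members (y axis) in each of the 9 libraries (points; x axis, library number within control, BAL101553 and astrocytes), with the group mean (horizontal bar) and SD (vertical bar, n = 3). Both classes are lowest in control 1 and BAL101553 1 of their groups, and the libraries labelled astrocytes lie close together, from 1.74 to 2.01 for the type I class and from 3.29 to 3.47 for the IFN-gamma class.

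The direction of many members turned on which libraries were compared. BAL101553 1 was the lowest of its group in 41 of 42 members, and control 3 the highest of its group in 33. Leaving out both therefore favors positive signs. In control 1 and 2 against BAL101553 2 and 3, which leaves out BAL101553 1 and control 3, 40 of 42 members had positive log2 fold changes, with a median of 0.53 against 0.013 over all genes. The count of members called there was 0 by edgeR's quasi-likelihood test (12 at an unadjusted p under 0.05), with 1 gene called among all 12713 tested. The share of all genes at that unadjusted threshold was not counted. In control 2 and 3 against BAL101553 2 and 3, without either library numbered 1, 27 of 42 were positive, with a median of 0.11. Without BAL101553 2, 14 of 42 were positive, with a median of -0.16, and without control 1, 17 of 42 were, with a median of -0.14. Without BAL101553 1, 37 of 42 were positive, with a median of 0.32.

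The genes of the pathway outside the members were read in the same fit. Among 7 genes of the receptors and their kinases, 2 rose in BAL101553 libraries and 0 fell, where 8.64% of all genes tested rose and 6.09% fell. Ifngr1, the ligand-binding chain of the IFN-gamma receptor, measured 50.9, 47.6 and 49.7 CPM in control and 60.9, 63.1 and 69.5 CPM in BAL101553 libraries (log2 fold change 0.39, SE 0.0911, adjusted p = 0.031 by edgeR). Jak2, the kinase bound to its partner chain, measured 43.3, 45.1 and 43.4 CPM against 55.4, 56.5 and 54.7 CPM (log2 fold change 0.34, SE 0.0823, adjusted p = 0.033 by edgeR). The groups did not overlap in either, and the spread within a group was small. Of 17 genes of cytosolic nucleic acid sensing, 1 rose and 0 fell, too few to tell their share of rises from that of all genes. This was Trim56, a ubiquitin ligase of the cGAS-STING pathway, with 19.8, 23.0 and 20.3 CPM in control and 29.2, 32.9 and 37.4 CPM in BAL101553 libraries (log2 fold change 0.66, SE 0.128, adjusted p = 0.019 by edgeR).

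Of 47 other ISGs tested, 2 rose and 0 fell, against 8.64% and 6.09% of all genes tested. The count of 2 is too small to tell their share of rises from that of all genes. Their log2 fold changes were positive in 37, with a median of 0.42 against 0.016 over all genes tested. Uba7, the enzyme that activates ISG15 for conjugation, measured 3.59, 4.62 and 5.05 CPM in control and 5.92, 10.8 and 9.22 CPM in BAL101553 libraries (log2 fold change 0.97, SE 0.259, adjusted p = 0.044 by edgeR). F830016B08Rik, an Irg-related gene, measured 0.0449, 0.189 and 0.589 CPM against 0.752, 4.34 and 2.09 CPM (log2 fold change 3.10, SE 0.839, adjusted p = 0.046 by edgeR). In both the groups did not overlap, with BAL101553 1 the lowest of its group. Mx1, a classical type I target, measured 3.19, 7.39 and 9.34 CPM against 6.60, 15.0 and 14.1 CPM and did not pass the threshold (log2 fold change 0.85, SE 0.424). Of 6 negative regulators, among them the SOCS genes, 0 passed the threshold, with a lowest adjusted p of 0.062 by edgeR.

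Set against the libraries labelled astrocytes, which carry the same treatment label, most members were higher in the BAL101553 libraries. Control libraries were not tested against the libraries labelled astrocytes. With edgeR's quasi-likelihood test over 15314 genes, 36 of 42 members were lower in the libraries labelled astrocytes than in BAL101553 libraries and 1 was higher, against 38.9% lower and 46.3% higher among all genes. The median log2 fold change was -2.01 over the members and 0.18 over all genes tested. The type I class had 7 of 8 lower, with a median of -2.36, and the IFN-gamma class 6 of 8, with a median of -1.19. The 5 members that did not pass the threshold were Herc6, Oas2, Cmpk2, Gbp5 and Irgm2. The libraries differ in their cells throughout, so a difference between libraries and one between cell types cannot be told apart. The libraries labelled astrocytes also held 699 to 1442 CPM of microglia and macrophage markers and 1.33 to 2.26 CPM of T and NK cell markers. Neuron markers summed to 216 to 233 CPM there. All of these sums lay above the SB28 libraries. Endothelial markers summed to 178 to 209 CPM, below the SB28 libraries, where most of the sum was Cdh5. Cldn5, Pecam1, Kdr and Tie1 each lay above every SB28 library, Cdh5 lay below and Flt1 overlapped.

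The largest falls were of Oas3, Oasl1, Zbp1 and Bst2. Oas3 measured 0.123, 0.448 and 0.453 CPM in the libraries labelled astrocytes, with a log2 fold change of -4.62 (SE 0.788) against BAL101553 libraries. Oasl1 measured 0.740, 0.793 and 0.604 CPM (log2 fold change -4.55, SE 0.504) and Zbp1 1.02, 1.72 and 0.981 CPM (log2 fold change -4.30, SE 0.28). Bst2 measured 7.80, 9.66 and 10.3 CPM (log2 fold change -3.97, SE 0.377), all far below its lowest SB28 value of 70.4 CPM. None of these 4 genes overlapped between the groups. Xaf1, which counters the apoptosis inhibitor XIAP, was the only member past the threshold in the other direction, with 23.2, 26.9 and 23.7 CPM against 9.68, 19.6 and 14.8 CPM in BAL101553 libraries (log2 fold change 0.76, SE 0.23, adjusted p = 0.014 by edgeR).

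**Figure D5:**
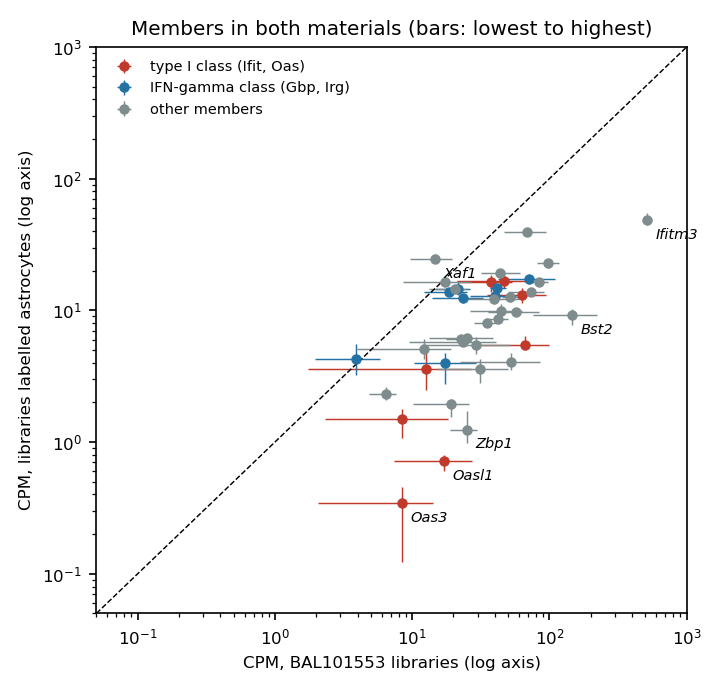
Mean CPM of each of the 42 members in BAL101553 libraries (x axis, log scale) and in the libraries labelled astrocytes (y axis, log scale), with bars from the lowest to the highest of 3 libraries and a dashed line of equal level. Most points lie below the line, 36 of 42 past the threshold, and Xaf1 lies above it.

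Levels of different members were compared per kilobase of exon in GENCODE vM21, as mean CPM per kilobase. In control libraries Ifitm3 led with 933, followed by Bst2 with 147, Isg15 with 77.6, Ifit3 with 33.4 and Ifit1 with 23.1, and the lowest were Oas3 with 0.319, Gbp5 with 0.307 and Oas2 with 0.118. In BAL101553 libraries Ifitm3 stood at 764, Bst2 at 162 and Oas2 at 2.83. In the libraries labelled astrocytes Ifitm3 stood at 71.2 and Bst2 at 10.2. The widest ranges within the control group were 12.5-fold for Oas1a, 8.76-fold for Oas2, 7.92-fold for Iigp1 and 6.13-fold for Oas3, against 1.22-fold for Trim25.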

How the data were processed

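Per the labels and the submitters' processing notes, the authors mapped reads to mm10 with TopHat and counted them with HTSeq 0.6.1; the study's methods also name a stranded library protocol and featureCounts. The gene annotation, and whether strand was used in counting, are not given in the sources used here. The table the authors deposited holds raw counts (whole numbers, without any normalization) for 9 libraries, and each count column matched 1 sample title. Among its row names 27 are dates in place of gene symbols, none of them a member. The 42 members, both classes, the pathway lists and the marker lists were chosen with earlier results of these data known.

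Tests were run with edgeR 4.0.16 (R 4.3.3) after filterByExpr and TMM scaling, as two-sided quasi-likelihood tests with p-values adjusted by Benjamini-Hochberg over every gene tested and a threshold of 0.05, with only the groups compared in each fit. DESeq2 1.42.0, limma 3.58.1 (limma-trend), other scalings, filters and libraries were alternatives. Levels are CPM scaled by TMM over the 9 libraries; log2 CPM used a prior count of 2. The test was also tested on simulated data. Values in every library are given for both classes, the transcription factors, the 5 other members with the lowest p, the largest changes against the libraries labelled astrocytes, and pathway genes past the threshold; other genes named were chosen after their values were seen. All 42 symbols matched GENCODE vM21, and 34 matched the RefSeq promoter table. A gene of the pathway lists is not reported here, and counts over its list leave it out.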

Additional observations from a re-analysis of the deposited data

How the results depend on the processing

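Between BAL101553 and control libraries, the count of members called (2) stayed at 2 with other scalings, DESeq2 and limma-trend. It also stayed at 2 with a filter of at least 1 count in any library and with all 9 libraries in one model. Of all genes tested, 10.7% to 22.4% were called in these settings. The count of members was 1 with at least 10 counts in every library, where 40 members were tested and Oas2 was not. With 1 library left out it was from 0 to 2. It was 0 without control 1, 2 or 3 or BAL101553 3, with 4, 3, 7 and 3 members at an unadjusted p under 0.05. Of all genes tested, 3.56%, 9.85%, 1.5% and 5.26% were called in these fits. Without BAL101553 2 the count of members was 1, beside 13.4% of all genes. It was 0 in control 1 and 2 against BAL101553 2 and 3, beside 0.00787% of all genes. It was also 0 in control 2 and 3 against BAL101553 2 and 3, a choice made after seeing the data, beside 1.09% of all genes. At an unadjusted p under 0.05 these comparisons had 12 and 14 members. The share of all genes at that unadjusted threshold was not counted in the fits with libraries left out. DESeq2 and limma-trend were not run on these subsets. With the replicate number as a block 5 members were called (Stat2, Oas2, Oas3, Rsad2 and Gbp7), beside 10.9% of all genes tested. The sample titles link libraries of different groups only by a number. Deviations of same-numbered libraries correlated over all genes by 0.143, 0.0113 and 0.145, and not every library correlated best with its own number. Over the members these correlations were 0.653, 0.111 and -0.0281, and that of BAL101553 2 with control 3 was 0.765. Whether same-numbered libraries shared a batch was not tested. The cause of these changes was not tested, and the fits with libraries left out also held fewer libraries.

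The IFN-gamma class median ranged from -0.15 to 0.43 when 1 library was left out, and the median SD in control libraries from 0.181 to 0.791. The difference between the classes (0.72) was 1.14 in control 1 and 2 against BAL101553 2 and 3, -0.00529 with the wider type I class and -0.23 without Oas1a, Oas2 and Oas3, which was chosen after seeing the data. The comparison that gave 1.14 left out the lowest BAL101553 library and the highest control library for the type I level minus the IFN-gamma level. Members not past the threshold changed sign. With 1 library left out, the log2 fold change ranged from -0.31 to 0.46 for Ifit1, -0.30 to 0.41 for Oasl2, -0.29 to 0.42 for Igtp, -0.76 to 0.29 for Irf7, -0.72 to 0.0207 for Irgm1, -0.71 to 0.0430 for Ifit3, -0.18 to 0.31 for Irf9 and -0.0337 to 0.48 for Irgm2. In control 1 and 2 against BAL101553 2 and 3 it was 0.42 for Irf7, 0.32 for Ifit3, 0.21 for Gbp3, 0.27 for Irgm1 and 0.0237 for Zbp1, and in control 2 and 3 against BAL101553 2 and 3 it was 0.00259 for Irf7. Against the libraries labelled astrocytes, from 33 to 40 members were called in the alternatives run, beside 73.9% to 85.8% of all genes tested. Counting error limits Oas2, Oas1a, Oas3 and Gbp5 in control 1.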
